A study of Mus musculus with 18 samples.

Results

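Transcripts of 9 genes best known from neurons were followed through 18 RNA libraries labelled as mouse brain microglia: Kif5a, Nrgn, Camk2a, Snap25, Olfm1, Hpca, Cyfip2, Sept3 and Syt1. They are 9 of the 55414 gene identifiers in the count table, and they were taken up by name because they had stood out in earlier results of these libraries, most plainly in males. The libraries fall into 4 groups by sex and Chd8 genotype: 4 female KO, 4 female WT, 5 male KO and 5 male WT. Chd8 encodes a chromatin remodeler. All 18 titles also carry the code HX, whose meaning is not stated. The labels give no age, no strain, no brain region, no way of purifying the cells, and no account of which exons, how many Chd8 copies or which cells the knockout affects. Whether each library came from its own mouse is also not stated, so the p-values below measure the spread between libraries, which may be technical.

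Neurons pass signals at synapses. Vesicles in the axon ending fuse with the membrane through SNARE proteins and a calcium sensor, and the receiving spine answers through calmodulin and CaM kinase II. Cargo reaches both ends along microtubules carried by kinesin motors. Microglia, the resident macrophages of the brain, contact and engulf synaptic material, and preparations of them can also carry RNA from the tissue around them. RNA was measured by a bulk form of MARS-seq, in which each captured 3' end of a polyadenylated RNA carries a unique molecular identifier (UMI) and is counted as 1 molecule. In such bulk samples more cells of a type and more RNA per cell cannot be told apart.

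The libraries held 435838 to 9149144 UMIs, and female KO library 33 and female WT library 34 were the shallowest of the 18, at 435838 and 458075 UMIs. The number of reads behind each UMI fell into 3 ranges that cross the groups unevenly: 1.79 to 1.89 in 8 libraries (1 female KO, 4 male KO, 3 male WT), 2.94 to 3.12 in 6 (2 female KO, 1 female WT, 1 male KO, 2 male WT), and 5.52 to 7.26 in 4 (1 female KO, 3 female WT). All 12 microglial markers on a fixed list reached at least 10 CPM (counts scaled to a common library size, here by TMM for single genes) in every group. Chd8 averaged 104 ± 8.43 CPM in male KO and 151 ± 12.6 CPM in male WT libraries (SD, n = 5 each), and 122 ± 10.6 CPM in female KO and 165 ± 24 CPM in female WT libraries (SD, n = 4 each). The drop passed in males (log2 fold change -0.54 ± 0.10 SE, adjusted p = 0.00171) and did not pass in females (-0.44 ± 0.12, adjusted p = 0.0547, both edgeR quasi-likelihood test).

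The neuronal transcripts were highest in male KO libraries 9, 6 and 17. Summed over the 9 genes, they reached 384, 309, 235, 101 and 91.2 CPM (for sums, of the unscaled library total) in male KO libraries 9, 6, 17, 40 and 36, against 43.3, 35, 26.8, 22.9 and 17.6 in male WT libraries 11, 13, 14, 10 and 37. The sums of the male groups did not overlap, and within male KO the 3 highest libraries stood well above the other two. Female KO libraries 1, 33, 7 and 16 held 101, 80.3, 72.5 and 39.3 CPM, against 166, 80.9, 59.1 and 53.2 in female WT libraries 34, 30, 39 and 31. The female groups overlapped throughout, and the highest female value, 166 CPM, came from a shallow library with only 76 of these UMIs (95% Poisson interval 131 to 208, which covers counting error only). Male KO libraries 40 and 36, at 101 and 91.2 CPM, lay within the female range of 39.3 to 166 CPM. All 4 female WT libraries lay above all 5 male WT libraries.

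**Figure D1:**
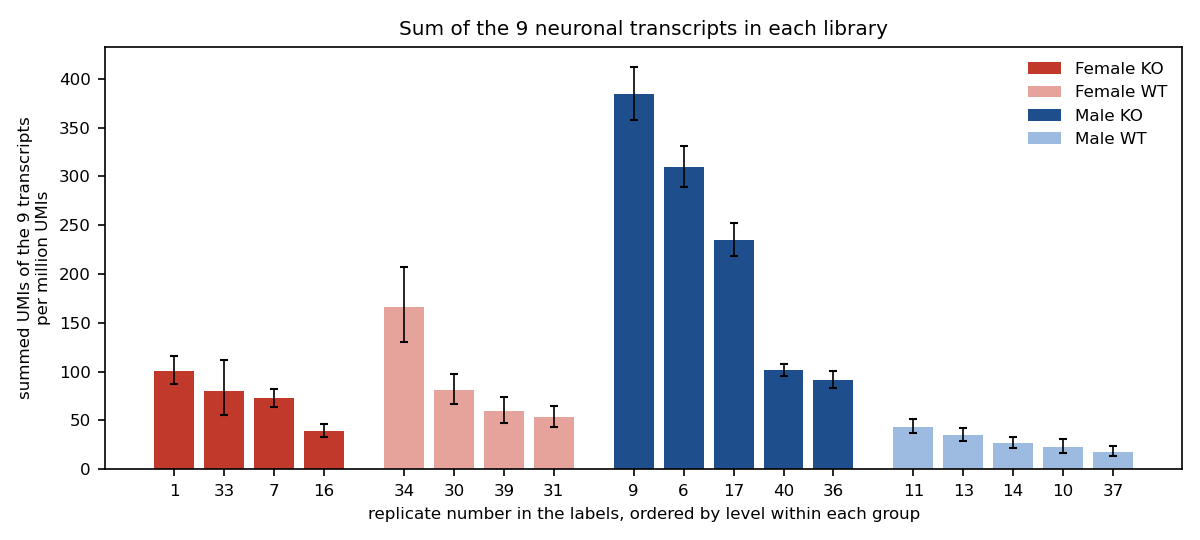
Summed CPM of the 9 transcripts in each library (y axis), with libraries grouped by sex and genotype and ordered by level within a group (x axis, replicate number). Bars are single libraries and whiskers are 95% Poisson intervals for counting error; the 5 male KO libraries lie between 91.2 and 384 and the 5 male WT libraries between 17.6 and 43.3.

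Group means of the sum were 224 ± 128 CPM in male KO and 29.1 ± 10.1 in male WT libraries (SD, n = 5 each), a ratio of 7.70. In females they were 73.3 ± 25.7 in KO and 89.8 ± 52.1 in WT libraries (SD, n = 4 each), a ratio of 0.816 that turned to 1.14 without female WT library 34. Leaving out any 1 male library kept the male ratio between 6.33 and 8.84. Within the lowest range of reads per UMI the sum averaged 184 CPM in 4 male KO libraries and 25.2 in 3 male WT libraries, and within the middle range it was 384 in 1 male KO library and 35.1 in 2 male WT libraries. In the middle range the 2 female KO libraries averaged 86.8 CPM and the single female WT library held 59.1. In the highest range the single female KO library held 80.3 CPM and the 3 female WT libraries ran between 53.2 and 166 CPM.

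Library by library, male KO 9 ranked among the top 3 of 18 for 8 of the 9 genes, male KO 6 for 7 and male KO 17 for 5. Male KO libraries 36 and 40 reached the top 3 for none of them, although all 9 genes were detected in each male KO library. Female WT 34 was in the top 3 for 4 genes. Of the female and male WT libraries, only female KO 16, female WT 34 and male WT 14 detected all 9 genes, and 4 genes were at 0 in female KO 33, where a count of 0 still allows up to 7.67 CPM.

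**Figure D2:**
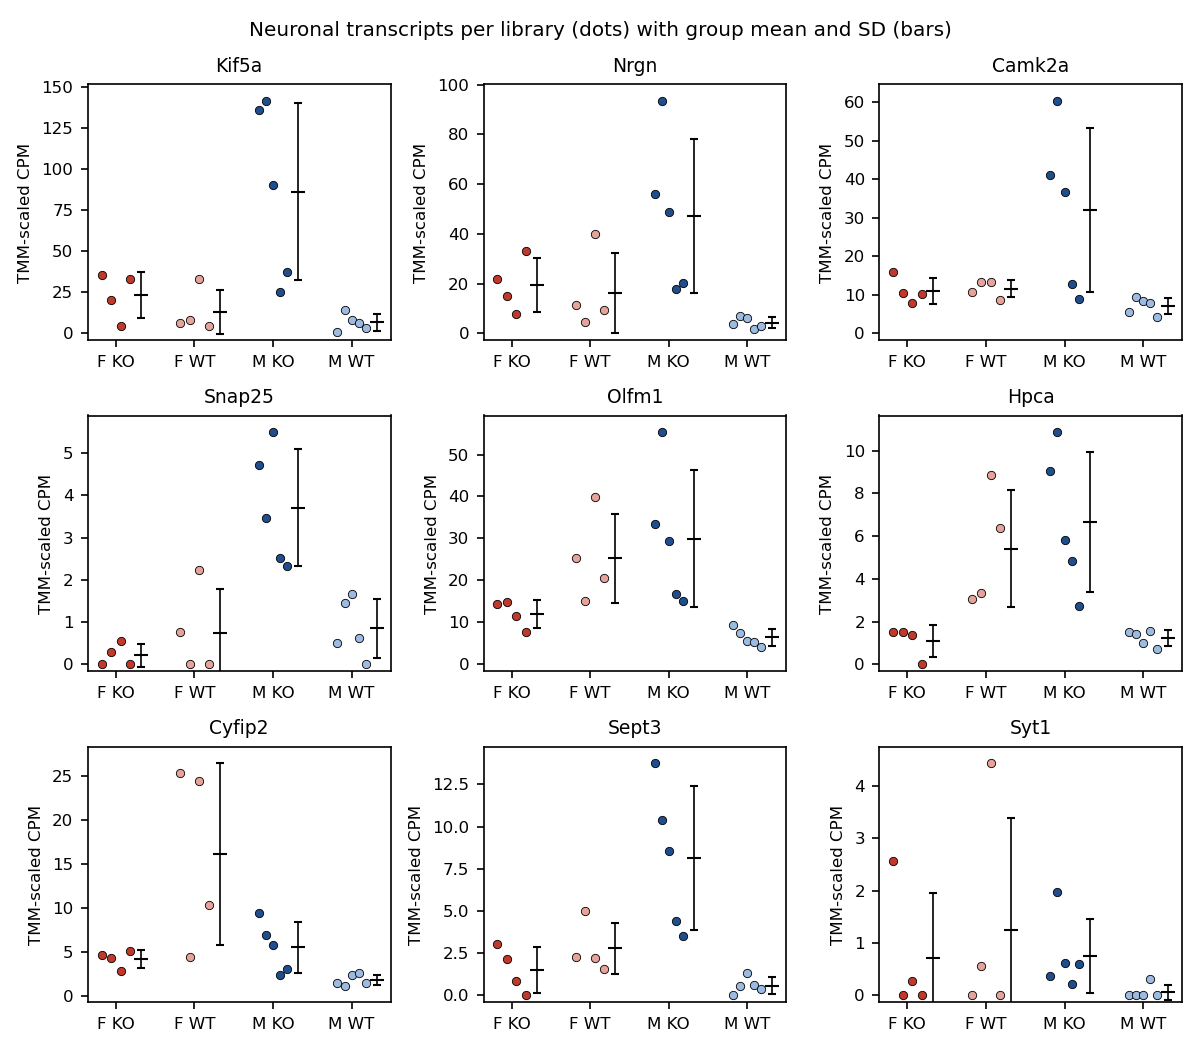
TMM-scaled CPM of each of the 9 genes (y axis, own scale per gene) in every library (dots) of the 4 groups (x axis; F female, M male), with the group mean and SD beside the dots; SD bars are cut off at the lower edge. Kif5a, Nrgn, Snap25, Olfm1, Hpca and Sept3 have all 5 male KO libraries above all 5 male WT libraries, and Cyfip2 is highest in female WT libraries 30 and 34.

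Because the genes had been taken up for their pattern in males, their male values are given as a description with no p-value. Of the 9, 7 had enough counts to enter the fit over all 10948 genes, and Snap25 and Syt1 did not. Calls in that fit needed an adjusted p (Benjamini-Hochberg) below 0.05. By this rule 6 of the 7 were called higher in male KO than in male WT, where 3.37% of all tested genes were called higher. That count follows from how the genes were taken up and is no support for their pattern. For 6 of the 9 genes, among them Snap25, which was not fitted, all male KO libraries lay above all male WT libraries. Among all tested genes this held for 5.26%. This count of 6 also follows from how the genes were taken up and is no support for their pattern. The female groups were tested on the reading that the male libraries set the choice, which is not recorded for each comparison. Sept3 and Hpca had at most 9 UMIs in any library outside male KO. None of the 7 was called in female KO against female WT, where 2.68% of all tested genes were called in either direction. At an unadjusted p under 0.05, 2 of the 7 would pass in females by edgeR, Hpca and Cyfip2, both with lower values in KO, and DESeq2 called 1, Cyfip2.

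Kif5a (chr10:127225696-127263348, minus strand, GRCm38) encodes a heavy chain of kinesin-1, the motor that hauls neurofilaments and vesicles down the axon. It had 136, 142, 90.4, 25.4 and 37.4 CPM in male KO libraries 6, 9, 17, 36 and 40, against 0.997, 14.1, 8.37, 6.35 and 3.53 CPM in male WT libraries 10, 11, 13, 14 and 37. Every male KO library exceeded every male WT library, and the fitted log2 fold change was 3.56 ± 0.55 (SE). Female KO libraries 1, 7, 16 and 33 had 35.3, 20.5, 4.74 and 33.2 CPM, against 6.15, 8.37, 33.3 and 4.78 CPM in female WT libraries 30, 31, 34 and 39. The female groups overlapped: 3 of 4 KO libraries were above 3 of 4 WT libraries, but KO 16 was the lowest of all and WT 34 was as high as the KO libraries. In females the log2 fold change was 1.06 ± 0.80 and did not pass (edgeR quasi-likelihood test, adjusted p = 0.577).

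Sept3 (chr15:82274893-82294574, plus strand) encodes a septin, a GTP-binding filament protein enriched in nerve terminals. Its levels were 13.8, 10.4, 8.55, 4.41 and 3.54 CPM in male KO libraries 6, 9, 17, 36 and 40, against 0, 0.577, 1.34, 0.635 and 0.353 CPM in male WT libraries 10, 11, 13, 14 and 37. The male groups were apart, with 143 UMIs in all over the KO libraries and 9 over the WT libraries, and the fitted log2 fold change was 3.55 ± 0.54. In females Sept3 had 3.07, 2.14, 0.837 and 0 CPM in KO libraries 1, 7, 16 and 33, against 2.31, 5.02, 2.22 and 1.59 CPM in WT libraries 30, 31, 34 and 39. These values overlapped, and the log2 fold change of -0.77 ± 0.70 did not pass (edgeR quasi-likelihood test, adjusted p = 0.659). It was -0.18 without female WT 31.

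The vesicle fusion genes were the scarcest. Snap25 (chr2:136713453-136782428, plus strand), the membrane SNARE of the axon ending, had 91 UMIs over all 18 libraries. It stood at 4.72, 3.46, 5.50, 2.52 and 2.33 CPM in male KO libraries 6, 9, 17, 36 and 40, against 0.498, 1.44, 1.67, 0.635 and 0 CPM in male WT libraries 10, 11, 13, 14 and 37. Low as they are, the male KO values lay above all male WT values. In females Snap25 was at 0, 0.305, 0.558 and 0 CPM in KO libraries 1, 7, 16 and 33, against 0.769, 0, 2.22 and 0 CPM in WT libraries 30, 31, 34 and 39. That is 3 UMIs in the 4 female KO libraries and 2 in the 4 female WT libraries, too few to compare. Syt1 (chr10:108497650-109010982, minus strand), the calcium sensor of vesicle fusion, gave 24 UMIs in all: 14 in male KO, 1 in male WT, 6 in female KO and 3 in female WT libraries. Its highest value was 4.44 CPM in female WT 34, from 2 UMIs.

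On the receiving side, Nrgn (chr9:37544492-37552904, minus strand) encodes neurogranin, a calmodulin-binding protein of dendritic spines. It had 55.9, 93.5, 48.9, 17.8 and 20.1 CPM in male KO libraries 6, 9, 17, 36 and 40, against 3.99, 7.21, 6.36, 1.59 and 2.82 CPM in male WT libraries 10, 11, 13, 14 and 37. The lowest male KO library was more than double the highest male WT library, with a fitted log2 fold change of 3.33 ± 0.51. Female KO libraries 1, 7, 16 and 33 had 22, 15, 7.81 and 33.2 CPM, against 11.5, 4.47, 40.0 and 9.55 CPM in female WT libraries 30, 31, 34 and 39. The highest female values came from the shallow libraries, KO 33 and WT 34, and the groups overlapped. The female difference of 0.40 ± 0.66 on the log2 scale did not pass (edgeR quasi-likelihood test, adjusted p = 0.841).

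Camk2a, on chromosome 18, encodes the alpha subunit of CaM kinase II, an abundant kinase of excitatory synapses. Male KO libraries 6, 9, 17, 36 and 40 had 41.0, 60.4, 36.7, 12.8 and 9.00 CPM, against 5.48, 9.51, 8.37, 7.93 and 4.23 CPM in male WT libraries 10, 11, 13, 14 and 37. The groups touched, since male KO 40 lay just under male WT 11, and 24 of the 25 pairs of a KO with a WT library had the KO library higher. The fitted log2 fold change was 2.06 ± 0.41. In females Camk2a had 15.9, 10.4, 7.81 and 10.2 CPM in KO libraries 1, 7, 16 and 33, against 10.8, 13.4, 13.3 and 8.76 CPM in WT libraries 30, 31, 34 and 39. The female values lay close together, with a log2 fold change of -0.07 ± 0.56 (edgeR quasi-likelihood test, adjusted p = 0.981).

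Hpca (chr4:129111570-129122036, minus strand) encodes hippocalcin, a calcium sensor with a fatty acid anchor. It had 9.07, 10.9, 5.80, 4.83 and 2.73 CPM in male KO libraries 6, 9, 17, 36 and 40, against 1.5, 1.44, 1.00, 1.59 and 0.705 CPM in male WT libraries 10, 11, 13, 14 and 37. The male groups were apart, with a fitted log2 fold change of 2.29 ± 0.42. Female KO libraries 1, 7, 16 and 33 had 1.54, 1.53, 1.40 and 0 CPM, against 3.08, 3.35, 8.88 and 6.37 CPM in female WT libraries 30, 31, 34 and 39. Here all KO libraries lay below all WT libraries. In shallow KO 33 a count of 0 still allows up to 7.67 CPM, above the WT values of 3.08, 3.35 and 6.37 CPM. Its place below WT is thus not resolved. In females the log2 fold change was -1.75 ± 0.58, short of the threshold after adjustment (edgeR quasi-likelihood test, adjusted p = 0.114), and each group rests on few molecules, 13 UMIs in female KO and 22 in female WT libraries.

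Olfm1 (chr2:28192992-28230736, plus strand) encodes a secreted olfactomedin-domain glycoprotein of neurons. Male KO libraries 6, 9, 17, 36 and 40 had 33.4, 55.4, 29.3, 16.8 and 15.1 CPM, against 9.47, 7.50, 5.69, 5.40 and 4.23 CPM in male WT libraries 10, 11, 13, 14 and 37. The male groups were apart, with a fitted log2 fold change of 2.17 ± 0.33. In females Olfm1 had 14.3, 15, 11.4 and 7.67 CPM in KO libraries 1, 7, 16 and 33, against 25.4, 15.1, 40.0 and 20.7 CPM in WT libraries 30, 31, 34 and 39. All female KO libraries were below all female WT libraries, though KO 7 and WT 31 nearly met. The log2 fold change of -0.82 ± 0.40 did not pass (edgeR quasi-likelihood test, adjusted p = 0.321). Non-overlapping groups with KO lower, as for Hpca and Olfm1, were seen for 2.80% of all tested genes in females.

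Cyfip2 (chr11:46193850-46312859, minus strand) encodes a subunit of the WAVE complex, which drives branching of actin filaments. As with Hpca, Olfm1, Sept3 and Camk2a, Cyfip2 had a positive log2 fold change in males and a negative one in females. It had 9.43, 6.93, 5.80, 2.31 and 3.03 CPM in male KO libraries 6, 9, 17, 36 and 40, against 1.5, 1.15, 2.34, 2.54 and 1.41 CPM in male WT libraries 10, 11, 13, 14 and 37. The male groups overlapped slightly, the fitted log2 fold change was 1.49 ± 0.48, and Cyfip2 was the 1 gene of the 7 not called higher in male KO. Female KO libraries 1, 7, 16 and 33 had 4.61, 4.28, 2.79 and 5.11 CPM, against 25.4, 4.47, 24.4 and 10.3 CPM in female WT libraries 30, 31, 34 and 39. WT libraries 30 and 34 were the highest of all 18, while WT 31 fell within the KO range. The female log2 fold change of -1.92 ± 0.53 just missed the threshold (edgeR quasi-likelihood test, adjusted p = 0.0514). DESeq2 gave an adjusted p of 0.0219, and over all alternatives it ran between 0.00544 and 0.344, with 0.264 without female WT 30.

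The WT groups of the 2 sexes differed as well. Since male WT against female WT uses the same male WT libraries as the male comparison, the values are set side by side as a description. All 7 fitted genes had lower values in male WT than in female WT libraries. The log2 differences, male WT minus female WT, were -3.02 ± 0.51 for Cyfip2, -2.22 ± 0.74 for Sept3, -1.91 ± 0.53 for Hpca and -1.85 ± 0.39 for Olfm1. They were -1.44 ± 0.70 for Nrgn, -0.66 ± 0.54 for Camk2a and -0.44 ± 0.83 for Kif5a. That of Kif5a turned to 0.10 without female WT 34 and to 0.80 with the range of reads per UMI as a covariate. For Cyfip2, Sept3, Hpca and Olfm1 all male WT libraries lay below all female WT libraries, as they did for 9.34% of all tested genes. For Sept3 this rests on 1 to 9 UMIs in each female WT library. The lowest female WT value of Sept3, 1.59 CPM, lay just above the highest male WT value, 1.34 CPM.

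The make-up of the signal differed between groups. Kif5a supplied 29.2% to 44.8% of the UMIs of the 9 genes in male KO libraries, against 4.26% to 32.9% in male WT libraries. Camk2a supplied 9.59% to 15.8% in male KO libraries and 22.1% to 29.4% in male WT libraries, so its share was lower in every male KO library. Cyfip2 supplied 4.64% to 7.41% in female KO libraries, against 8.16% to 29.7% in female WT libraries. In female WT 30, 33 of the 111 UMIs were Cyfip2 (29.7%, exact binomial 95% interval 21.4% to 39.2%). Across the 18 libraries the level of each gene was correlated with the mean of the other 8, with Pearson's r between 0.545 for Cyfip2 and 0.902 for Olfm1. These coefficients are descriptions over libraries that share a depth and a preparation.

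**Figure D3:**
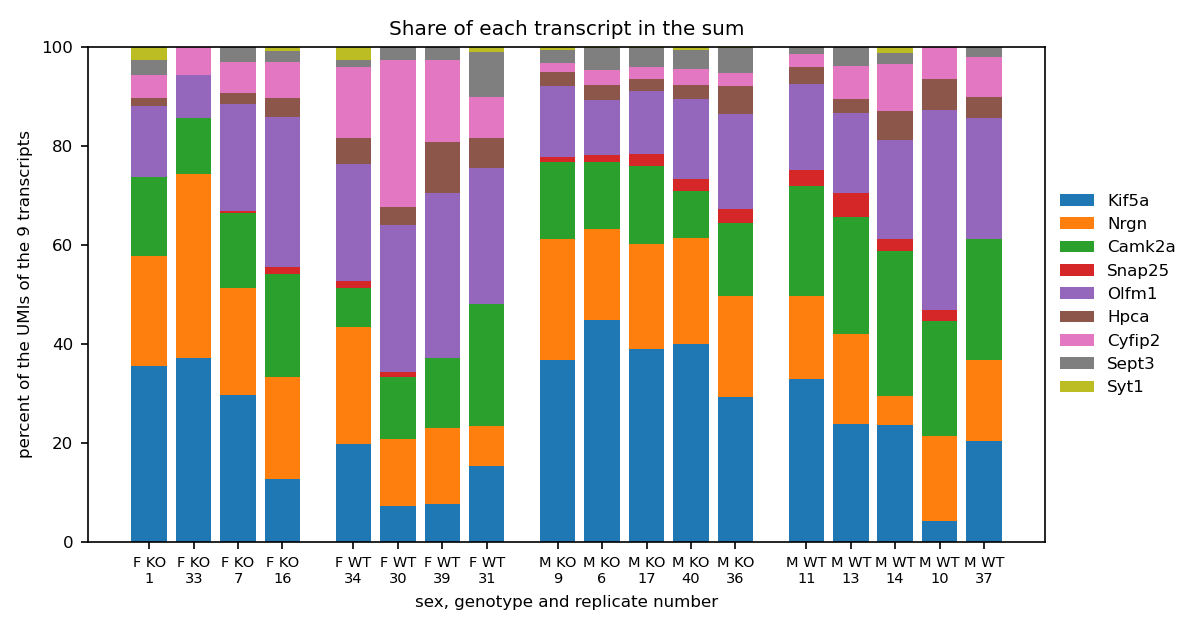
Share of each of the 9 transcripts in their summed UMIs (y axis, percent) in every library (x axis, sex, genotype and replicate number, ordered by the sum within a group). Kif5a takes 29.2% to 44.8% in male KO libraries, and Cyfip2 takes 29.7% in female WT library 30.

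Windows of 300 bases around the annotated starts (RefSeq, GRCm38.p6) were at hand for 5 of the 9 genes: Nrgn, Olfm1, Hpca, Cyfip2 and Syt1. They were searched on both strands for the RE1 core, CAGCACC and GGACAG with 2 bases between, the element bound by the neuronal gene silencer REST, which occurred in 0.0365% of all windows and in none of these. The GC box GGGGCGGGG, an Sp1-type element, occurred in 11.4% of all windows and in 2 of the 9 windows of these 5 genes. Those belong to Olfm1 and Hpca, and the stretches around the matches are shown with the box in capitals. A tie between the box and the expression values was not tested. The Olfm1 box, within chr2:28205600-28205629 (minus strand), begins 78 bases before a start. The Hpca box, within chr4:129121374-129121403 (minus strand), begins 90 bases before one:
Olfm1: ccgcggccggGGGGCGGGGacaaggccggg
Hpca: ctcccgggagGGGGCGGGGgcggagcctag
A match describes the letters only.

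Relatives that many cell types use were mostly not called in males. Kif5b, the ubiquitous kinesin-1 heavy chain, averaged 58.4 ± 12 CPM in male KO and 62.1 ± 6.77 CPM in male WT libraries, with a log2 fold change of -0.10 ± 0.18. Its neuronal relative Kif5c had 5.35 ± 3.52 CPM in male KO and 0.923 ± 1.01 CPM in male WT libraries (SD, n = 5 each) and was called higher at 2.31 ± 0.56. Snap23, the SNARE used outside neurons, had a male log2 fold change of 0.10 ± 0.23, and Snap29 and Snap47 were not called. The CaM kinase II subunits Camk2d and Camk2g lay at 0.08 ± 0.17 and 0.09 ± 0.11. Camk2b, which is also on the postsynaptic list below, lay at 0.57 ± 0.25. None of these subunits was called. Cyfip1, the WAVE subunit found in most cells, averaged 376 ± 17.9 CPM in male KO and 401 ± 46.3 CPM in male WT libraries, with a log2 fold change of -0.09 ± 0.12.

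Among the calcium sensors, Hpcal4 was called higher in male KO at 3.29 ± 0.60 and Hpcal1 was not, at 0.14 ± 0.14. Of 6 other septins, Sept5 alone was called higher in males, with 17.3 ± 9.10 CPM in male KO and 4.33 ± 1.69 CPM in male WT libraries (SD, n = 5 each) and a log2 fold change of 1.89 ± 0.45. Syt11, a synaptotagmin of intracellular vesicles, was higher in KO libraries of both sexes. It averaged 61.3 ± 10.3 CPM in male KO and 29.1 ± 4.13 CPM in male WT libraries, a log2 fold change of 1.08 ± 0.16. In females it rose to 46.4 ± 7.01 CPM in KO, against 20.7 ± 8.61 CPM in WT libraries, a log2 fold change of 1.05 ± 0.22 (edgeR quasi-likelihood test, adjusted p = 0.013), where 0.849% of all tested genes were called higher. The olfactomedin-like gene Olfml3, a microglial marker, was called lower in KO libraries of both sexes, at -0.42 ± 0.11 in males and -0.52 ± 0.13 in females, where 1.83% of all tested genes were called lower. The female calls of Syt11 and Olfml3 rest on the fit over all libraries. No gene was called when only the female groups were fitted. Olfm2, Olfm3, Olfm4 and Syt2 had too few counts to be fitted.

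**Figure D4:**
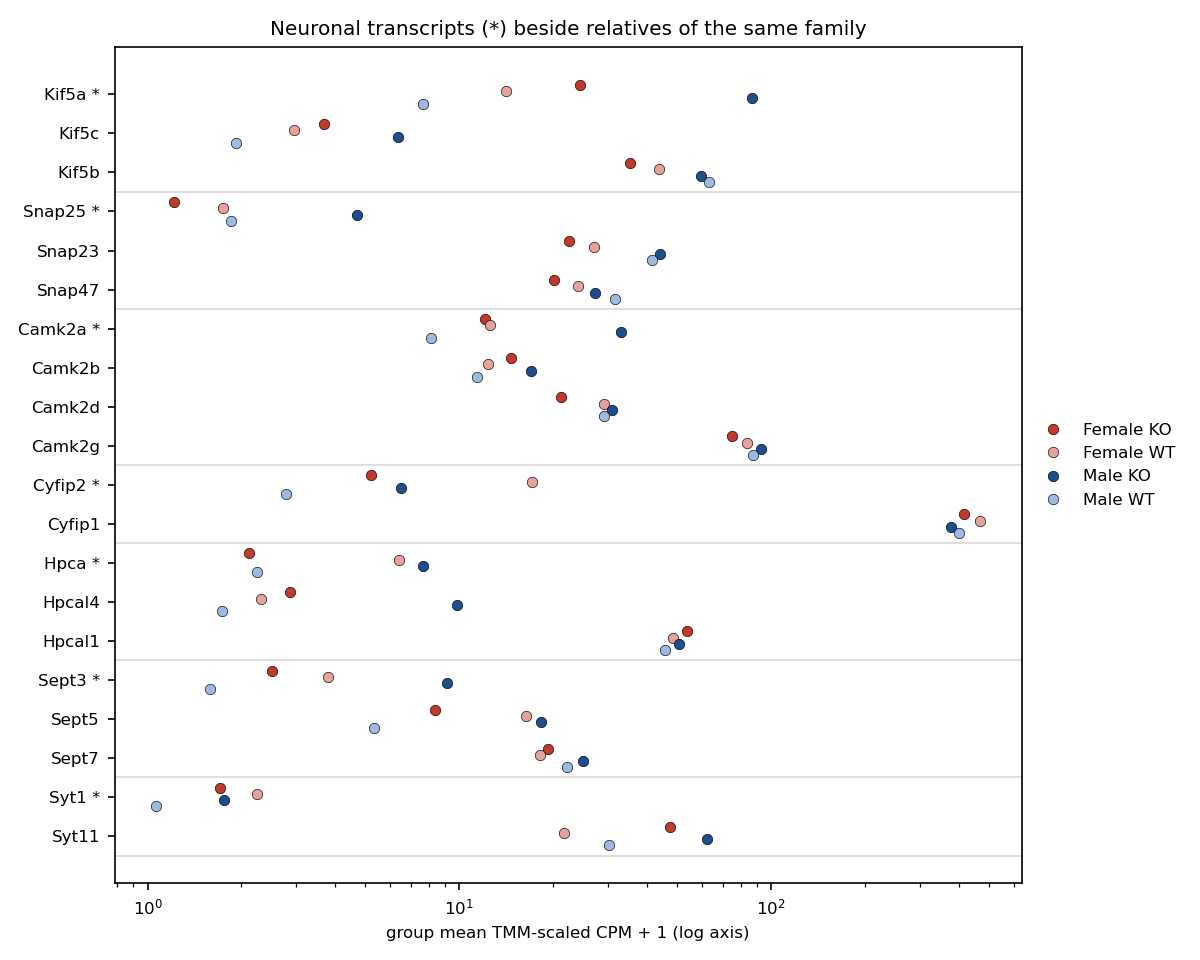
Group mean TMM-scaled CPM plus 1 (x axis, log scale) of 7 neuronal transcripts (asterisk) and relatives of the same family (y axis), coloured by group. Kif5b, Snap23, Camk2g, Cyfip1 and Hpcal1 lie close together in the male KO and male WT groups, whereas Kif5c, Hpcal4, Sept5 and Syt11 are higher in male KO.

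Other neuronal genes were followed in 12 lists holding 116 genes. Only 34 of these had enough counts to be fitted, 52 averaged under 1 CPM in every group and 8 had no UMI in any library. In male KO against male WT, 16 of the 34 were called higher and 1 lower (2.87% of all tested genes were called lower), and their median log2 fold change was 1.43, against -0.01 over all tested genes. The count of 16 was 8 without male KO library 6, 10 without library 9 and 10 without library 17, with 29 genes fitted each time. Scarce genes could enter the fit through the male KO libraries where they were high, so the count and median describe the fitted genes and do not stand for all 116. With no filter on low counts, 31 of 108 were called higher. In females none was called in either direction by edgeR, 2 of the 34 had an unadjusted p under 0.05, DESeq2 also called none higher, and the median was 0.10, against 0.01 over all tested genes. Between male WT and female WT libraries 1 was called higher, where 6.94% of all tested genes were, and 2 lower, where 10.3% were, with a median of -0.61.

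The lists differed in how many of their fitted genes were called. In the list for the neuronal cytoskeleton and axonal transport 7 of 14 genes were fitted, a count with the same limit. Those 7 were called higher in male KO, among them Map1a at 3.62 ± 0.66, Kif1a at 3.79 ± 0.62, Map1b at 2.04 ± 0.60 and Uchl1 at 2.04 ± 0.48. Outside male KO no library held more than 9 UMIs of Kif1a, 7 of Uchl1, 12 of Map1a or 16 of Map1b. The lists were also chosen with earlier results of these data known, so the count of 7 is no support for a pattern. Summed over all 14 genes of the cytoskeleton list the level was 22.9 to 105 CPM in male KO libraries, against 3.15 to 11.0 in male WT libraries. Other sums overlapped in males. The release machinery list held 287 to 335 CPM in male KO and 247 to 315 CPM in male WT libraries. All 116 neuronal list genes together held 474 to 888 CPM in male KO and 427 to 513 CPM in male WT libraries, a ratio of means of 1.46. Of 8 fitted genes for the release machinery 2 were called higher in male KO, Cplx1 and Cplx2, which encode complexins. Better expressed release genes were not called. Vamp2, a SNARE also used outside neurons, averaged 145 ± 12.6 CPM in male KO and 143 ± 18.1 CPM in male WT libraries, and Sv2a and Rab3a had log2 fold changes of 0.17 and -0.01. Stx1a, a membrane SNARE of nerve terminals, averaged 13.5 ± 4.86 CPM in male KO and 23.9 ± 2.90 CPM in male WT libraries (SD, n = 5 each), a log2 fold change of -0.89 ± 0.29 that did not pass. In the postsynaptic list Ddn at 3.71 ± 0.61 and Shank1 at 3.08 ± 0.65 were called higher, and Dlg4 at 0.14 ± 0.21 and Camk2b were not. Rbfox3 and Celf4, both RNA-binding proteins of neurons, were called higher in male KO at 1.75 ± 0.37 and 1.26 ± 0.31, while the related Elavl4 was called lower at -0.88 ± 0.26.

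Genes that mark single neuron classes had few counts. The cortical transporter Slc17a7 averaged 3.49 ± 2.36 CPM in male KO and 0.443 ± 0.470 CPM in male WT libraries (SD, n = 5 each), and 0.804 ± 0.874 CPM in female KO and 3.01 ± 4.04 CPM in female WT libraries (SD, n = 4 each). Summed over 10 genes of GABAergic interneurons, the male KO libraries held 2.20 to 9.89 CPM against 0 to 1.45 CPM in male WT libraries, and the female KO libraries held 0.874 to 9.18 CPM against 0 to 2.91 CPM in female WT libraries. The neurofilament gene Nefl, chosen after its values were seen, had 23 UMIs over the 5 male KO libraries and 0 in each of the other 13 libraries. All 6 genes of monoaminergic neurons averaged under 1 CPM in every group.

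Several astrocyte and myelin markers were also higher in male KO libraries. Among 10 astrocyte markers 4 were fitted, and Slc1a2 and Aldoc were among those called higher in male KO. Their list summed to 254 to 496 CPM in male KO libraries, against 134 to 181 in male WT libraries. In females it summed to 34.4 to 258 in KO libraries, against 46.6 to 135 in WT libraries. Much of these sums was Slc1a3, at 187 ± 14.6 CPM in male KO and 138 ± 20.6 CPM in male WT libraries (SD, n = 5 each). In females Slc1a3 averaged 109 ± 93.6 CPM in KO and 59.6 ± 32.1 CPM in WT libraries (SD, n = 4 each). Slc1a2, a glutamate transporter, had 40.3 ± 30.5 CPM in male KO and 1.89 ± 1.44 CPM in male WT libraries (SD, n = 5 each), while the defining markers Aqp4 and Gja1 averaged under 1 CPM in every group.

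Of 12 oligodendrocyte lineage markers 5 were fitted. Among them the myelin genes Mbp and Mobp were called higher in male KO, Cnp was called lower and Mag was not called. The list summed to 302 to 877 CPM in male KO libraries, against 173 to 228 in male WT libraries. In females it summed to 202 to 261 in KO libraries, against 173 to 303 in WT libraries. Male KO libraries 9, 6 and 17, the top 3 for the neuronal sum, were also the top 3 for the oligodendrocyte list, at 877, 692 and 616 CPM, and for the astrocyte list, at 496, 366 and 342. Mog, Cldn11, Mal, Ermn and Opalin averaged under 1 CPM in every group.

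Border-associated macrophages sit along vessels and in the meninges, and all 9 of their markers were fitted. In male KO against male WT 7 of the 9 were called higher, and in male WT against female WT 7 were called lower, while none was called in females. Pf4 averaged 71.9 ± 17.6 CPM in male KO and 20.2 ± 4.46 CPM in male WT libraries (SD, n = 5 each), and 81.5 ± 12 CPM in female KO and 88.9 ± 30.9 CPM in female WT libraries (SD, n = 4 each). Cbr2 averaged 41.8 ± 6.67 CPM in male KO and 7.41 ± 2.10 CPM in male WT libraries, and 46.1 ± 4.92 CPM in female KO and 64.3 ± 26.9 CPM in female WT libraries. The male WT libraries were thus low for both genes, as they were for the neuronal sum. Male KO libraries held 879 to 1183 CPM of the list against 837 to 1063 CPM in male WT libraries, and female KO libraries held 1168 to 1299 CPM against 1159 to 1471 CPM in female WT libraries, most of it Stab1, which microglia also express.

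Erythroid genes gave 104 to 421 CPM in male KO libraries against 3.47 to 177 CPM in male WT libraries, with none of 4 fitted genes called and male KO libraries 17, 9 and 6 again the top 3. In females they summed to 54.7 to 314 in KO and 2.72 to 230 in WT libraries. Endothelial and mural markers overlapped in males, at 34.3 to 42.9 CPM in KO and 33.4 to 42.6 in WT libraries, with Tek and Slco1a4 at 0 in every library. In females they summed to 29.8 to 38.2 in KO and 44.4 to 49.4 in WT libraries. Choroid plexus and ependyma markers, chiefly Ttr, gave 199 to 837 CPM in male KO libraries against 419 to 991 CPM in male WT libraries, and 133 to 377 CPM in female KO libraries against 36.4 to 205 CPM in female WT libraries. The microglial list summed to 42461 ± 2208 CPM in male KO and 47577 ± 1737 in male WT libraries (SD, n = 5 each), with Cx3cr1 and Olfml3 called lower. In females it summed to 46215 ± 3853 CPM in KO and 39640 ± 1143 in WT libraries (SD, n = 4 each). The part of these other cells in the neuronal values was not tested.

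**Figure D5:**
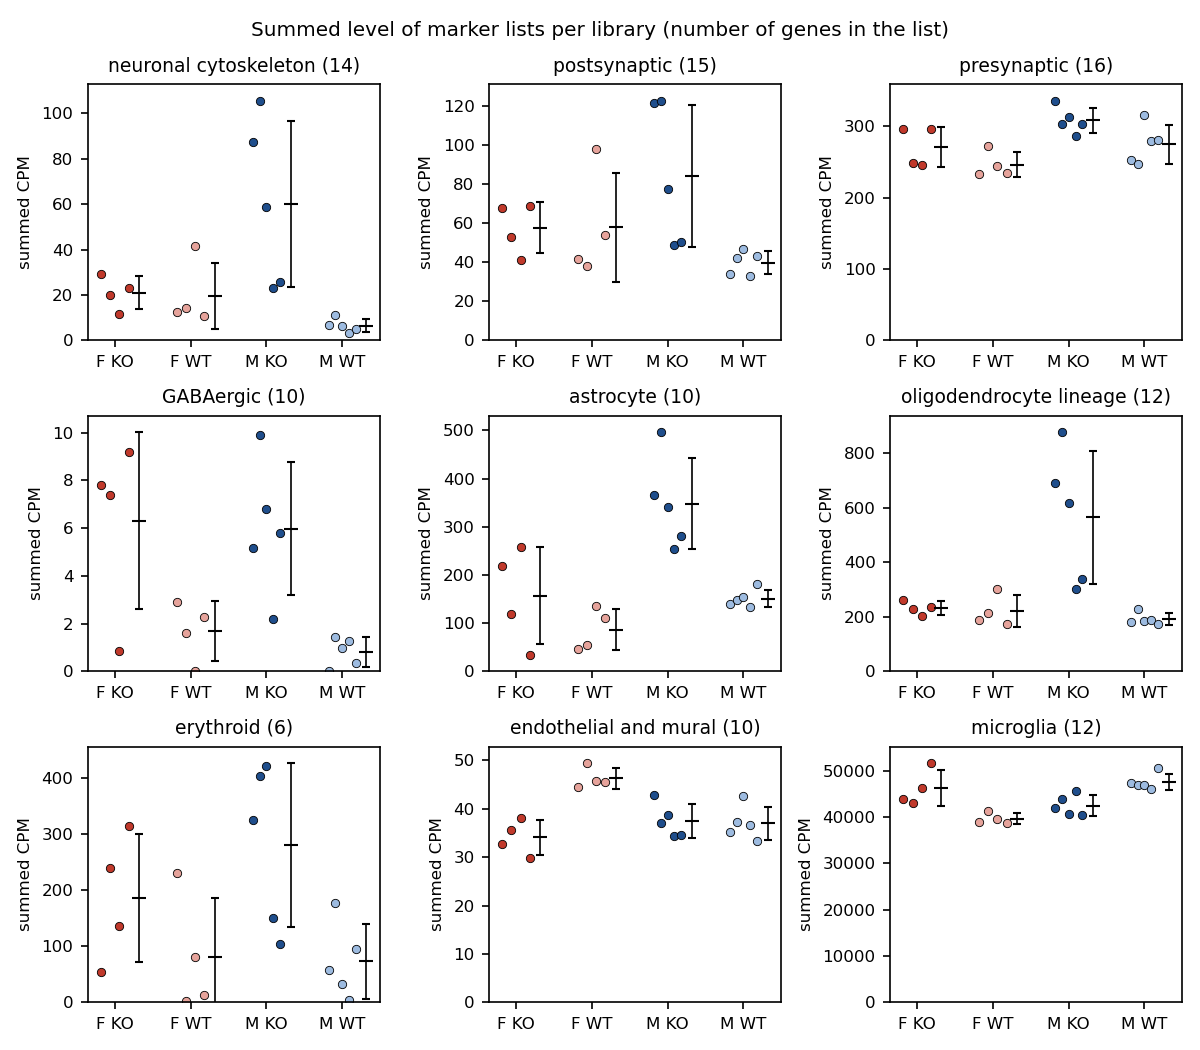
Summed CPM (y axis, own scale per list, from 0) of 4 neuronal lists and of lists for other cells and microglia in every library (dots) of the 4 groups (x axis; F female, M male), with group mean and SD beside the dots. Male KO libraries reach 105 for the neuronal cytoskeleton, 496 for astrocytes and 877 for the oligodendrocyte lineage, above all other libraries, while the endothelial and mural list stays between 33.4 and 42.9 in males.

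The genes whose levels ran most like the mean of the 9 over the 18 libraries came from several cell types. By Pearson's r of log2 CPM, they were Kif1a at 0.927, Rbfox3 at 0.921, Slc1a2 at 0.915, Aldoc at 0.906, Jph4 at 0.905, Fbxl16 at 0.902, Shank1 at 0.899, Mobp at 0.898, Map1a at 0.897 and Csrp1 at 0.889. Kif1a, Rbfox3, Shank1 and Map1a are on the neuronal lists, Slc1a2 and Aldoc on the astrocyte list and Mobp on the oligodendrocyte list. Jph4, Fbxl16 and Csrp1 are on none. Fbxl16 averaged 21.6 ± 12.9 CPM in male KO and 2.22 ± 1.06 CPM in male WT libraries (SD, n = 5 each), and 7.38 ± 4.26 CPM in female KO and 5.82 ± 3.64 CPM in female WT libraries (SD, n = 4 each). By contrast Vamp2 at 0.050 and Rab3a at -0.21 did not run with the 9 genes. The coefficients describe libraries that share a protocol and carry no p-value.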

How the data were processed

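RNA of 18 libraries was measured by bulk MARS-seq, which targets 3' ends, per the labels' protocols. The authors deposited whole-number counts per gene, corrected for UMIs and, in a second table, as reads. cutadapt, STAR, HTSeq and mm10 are named in the submitters' processing notes; the sources used here do not state how UMIs were collapsed, the annotation or the strand setting. A further 16 columns of each kind of count match no label and were not used. Symbols and coordinates came from GENCODE M21 (52133 of 55414 identifiers). Genes that overlap the 9 held 0 to 3 UMIs each.

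UMI counts were filtered with filterByExpr (10948 genes), scaled by TMM and fitted over all libraries with 1 mean per group in edgeR 4.0.16 (R 4.3.3), by the two-sided quasi-likelihood test with Benjamini-Hochberg adjustment over all genes, called under 0.05. SEs are the log2 fold change over the square root of F. CPM of single genes is TMM-scaled; sums are CPM of the unscaled library total. The fit was tested on simulated data. Alternatives were reads, size factors by RLE, DESeq2 1.42.0, no filter, only the groups compared, the range of reads per UMI as a covariate or alone, leaving out each library and, chosen after seeing the data, leaving out the 2 shallowest. Named genes were the 9, Chd8, relatives, the 4 best expressed of each list and the 10 most correlated genes. Others, such as the called Cplx1, Cplx2, Cx3cr1 and Elavl4 and the uncalled Stx1a, were named after their values were seen. Members and lists were chosen with earlier results of these data known. DNA windows came from RefSeq; protein sequences were not used here. Some genes that the rule names are not reported here.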

Additional observations from a re-analysis of the deposited data

Results flagged for a closer look

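Within groups of 4 or 5 libraries, 12 of 124 checked sets of values held 1 library far from the others, and chance flags about 1 in 20. Female WT 34 was far above its group for Kif5a (33.3 CPM, the others at most 8.37), for Syt1 (4.44 CPM, from 2 UMIs) and for the neuronal cytoskeleton list (41.5 CPM). Female KO 33 was lowest for Hpca at 0 CPM, where its depth allows up to 7.67 CPM. Syt1 was also flagged in female KO 1 at 2.56 CPM (5 UMIs), male KO 9 at 1.98 CPM (4 UMIs) and male WT 14 at 0.317 CPM (1 UMI). In male WT 14 that 1 UMI set the flag, since the other male WT libraries held 0. For sets that are mostly 0 the rate of 1 in 20 need not hold.

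Male KO 6 held a summed 128 CPM of hypothalamic and pituitary hormone transcripts, against at most 17.3 in the other male KO libraries, and 1.11 of monoaminergic genes. Female WT 31 held 16.3 CPM of the hormone list and female WT 39 held 0.758 of the monoaminergic list. No monoaminergic gene had more than 3 UMIs in any library. Female KO 1 was high for border-associated macrophage markers at 1299 CPM.

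KO libraries lay wholly on one side of WT in females and on the other in males for 3 measures, and this difference between sexes was not tested. Olfm1 had a ratio of KO to WT means of 0.479 in females and 4.64 in males. Hpca had 0.206 in females and 5.34 in males, though the place of female KO 33 below WT is not resolved at its depth. The microglial list had 1.17 in females and 0.892 in males.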

How the results depend on the processing

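No paired analysis was possible because no replicate number occurs in more than 1 group. The fitted male log2 fold changes of the 7 genes were positive under every alternative that fitted them. The male ratio of sums, 7.70, ran between 6.33 and 8.84 without each library and between 7.55 and 8.16 under some other alternatives. That range leaves out the lowest range of reads per UMI alone, where the sum averaged 184 CPM in male KO and 25.2 CPM in male WT libraries. Female calls over all genes numbered 293, but 136 with reads, 532 without the filter, 0 when only the female groups were fitted, 100 with the range of reads per UMI as a covariate, 462 without the 2 shallowest libraries and 71 to 680 when each library was left out. Male calls numbered 683, but 222 with reads and 1145 with the male groups alone, and 484 to 945 without each library. Male WT against female WT gave 1892, but 1188 with reads, 271 with the covariate and 1092 to 2430 without each library. Other neuronal genes called higher in females were 0, but 1 with reads. In males they were 16, but 31 of 108 fitted without the filter, 7 of 23 with the male groups alone, 9 of 27 within the lowest range of reads per UMI, and 8 to 21 without each library. The female ratio of sums, 0.816, was 1.00 with reads, 1.10 without the 2 shallowest libraries and 0.713 to 1.14 without each library. The female log2 fold change of Camk2a changed sign without the filter (0.0076), with the covariate (0.31) and without female KO 16 (0.14) or female WT 31 (0.06). Without each library it ran between -0.30 and 0.14. Nrgn in females was -0.0195 without female WT 31, 0.97 without female WT 34 and 1.10 with the covariate. Kif5a in male WT against female WT became 0.80 with the covariate, 0.11 without the 2 shallowest libraries and 0.10 without female WT 34, and ran down to -0.92. Female Cyfip2 passed with DESeq2, without the filter (adjusted p = 0.00544) and without each of 4 libraries, female KO 33, female WT 31, male KO 36 and male KO 6 (0.0113 to 0.0484). The causes were not tested. Depth limits the low genes: 1 UMI in the shallowest libraries exceeds 2 CPM.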
